A study of Homo sapiens with 9 samples.

Results

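Potassium channels were represented by the 87 genes of 18417 measured whose symbol starts with KCN and that had a probe set annotated to no other symbol. They had 91 such probe sets, since KCNMB3 had 4 and KCNG1 had 2, and such a gene was read from its brightest probe set, by the mean of the 9 arrays. By symbol, 35 genes encode voltage-gated pore subunits, 15 encode 2-pore-domain channels, 13 encode inward rectifiers, 6 encode pore subunits opened by calcium or sodium, and 16 encode accessory proteins. The other 2 are KCNQ1DN and KCNJ5-AS1, which RefSeq lists as long noncoding RNAs. A further 3 probe sets with a KCN symbol also carried a second symbol and were left out.

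RNA was hybridised to human gene arrays from T47D, an established luminal breast cancer line that carries progesterone receptor, with 9 arrays in 3 groups of 3. The cells of the first group had 10 nM ORG2058, a synthetic progestin that the labels call progesterone, together with 0.1 µg/ml doxycycline for 4 days. Those of the second group had 10 nM ORG2058 alone for 4 days, and those of the third had ethanol vehicle, for a time that the labels do not give, so time in culture and hormone cannot be told apart. All 9 samples came from cells with the retroviral pHUSH vector, maintained in puromycin. In these cells doxycycline switches on an shRNA that targets ELF5, a transcription factor of the mammary alveolar lineage. Each sample pooled the cells of 3 wells. A group with doxycycline and no progestin, or with another hairpin, was not analysed here, so effects of the drug and of the hairpin cannot be told apart. The design text asks how far ELF5 mediates the transcriptional response to progestin, and the comparisons below put that question to the channel genes.

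Potassium channels let potassium leave the cell down its gradient, which sets the resting voltage across the membrane and, through it, the drive for calcium to enter. Pore subunits assemble as tetramers, or as dimers in the 2-pore-domain family, and accessory subunits change how they open. In epithelia such channels serve fluid secretion and volume control, and several family members have been studied in breast cancer cells for their part in proliferation and migration.

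Levels are given as log2 of the deposited linear value plus 16, a scale whose floor is 4, since dim probe sets spread widely without the addition. Median levels of the named probe sets were 7.34 to 7.43 on the 9 arrays, and 0 of the KCN genes had a deposited value below 0 on any array. Probe sets differ in brightness for the same amount of RNA. A difference in level between probe sets therefore mixes probe brightness with the amount of RNA, and the parts cannot be told apart. Changes are differences of group means with their standard error (SE), tested with limma over 21214 probe sets, and a gene is called at a Benjamini-Hochberg adjusted p under 0.05. ELF5 was at 10.46, 10.48 and 10.36 with progestin plus doxycycline, at 11.32, 11.24 and 11.32 with progestin, and at 10.28, 10.23 and 10.07 with vehicle. Its 3 groups did not overlap, and the change with doxycycline added was -0.86 (SE 0.08, adjusted p = 0.00336). PGR, the progestin's receptor, was at 9.89 to 10.05 with progestin plus doxycycline, 9.63 to 9.71 with progestin and 11.89 to 11.93 with vehicle. The luminal markers KRT8, KRT18, KRT19, EPCAM, CDH1, GATA3, FOXA1, ESR1 and PGR had mean levels of 11.28 to 11.36 per array with progestin plus doxycycline, 11.18 to 11.24 with progestin and 11.46 to 11.54 with vehicle. With progestin 1 of these 9 rose (KRT19 by 0.46) and 3 fell (PGR by 2.25, GATA3 by 0.50 and ESR1 by 0.48). Neuronal markers averaged 6.18 to 6.28 with progestin plus doxycycline, 6.18 to 6.29 with progestin and 6.02 to 6.18 with vehicle, and 2 of 6 rose with progestin (GAP43 by 0.49 and SYP by 0.39), while SYT1 differed by -0.30 (adjusted p = 0.0532). These counts of markers can be read beside the 30.4% of all probe sets that changed with progestin. Muscle markers averaged 7.57 to 7.66 with progestin plus doxycycline, 7.57 to 7.74 with progestin and 7.63 to 7.76 with vehicle, and 1 of 4 fell with progestin. Markers of stroma, endothelium and immune cells averaged 6.45 to 6.56 with progestin plus doxycycline, 6.59 to 6.66 with progestin and 6.47 to 6.70 with vehicle, with 2 of 9 higher and 1 lower under progestin. The part of these markers in the results below was not tested, and in cultures measured as a whole, fewer cells of a kind and less RNA per cell cannot be told apart.

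Progestin alone against vehicle asked which channel genes respond to the hormone. Of the 87 KCN genes, 17 changed (19.5%), with 8 higher and 9 lower. Over all probe sets tested, 30.4% changed, 14.1% higher and 16.3% lower, so the share of channel genes called lay below that of the table. The probe sets of the channel genes were also dimmer, with a median mean level of 6.41 against 7.38 over all probe sets tested. Above the median level of all probe sets, 7 of 20 KCN genes were called (35.0%) against 43.4% of all probe sets there, and below it 10 of 67 (14.9%) against 17.4%. The median change was 0.08 over the KCN genes and 0.01 over all probe sets tested. Of the 87 changes 57 were above 0, beside 11079 of 21214 over all probe sets. Changes of at least 2-fold were called for 5 members: KCNMA1, KCNJ11 and KCNC4 were higher, and KCNK5 and KCNQ5 were lower. On the log2 values as deposited there were 7, with KCNS3 (-1.21) and KCNH7 (-1.24) added, and with 64 added there were 5. Folds given below are of the value plus 16. As deposited, the log2 changes were 2.74 for KCNJ11, 2.14 for KCNC4, -2.64 for KCNK5 and -1.86 for KCNQ5. With 64 added they were 1.59, 1.36, -1.86 and -1.10 in the same order. With array weights 31 KCN genes were called, where 47% of all probe sets were. The counts by family below are likewise read beside 30.4% called, 14.1% higher and 16.3% lower.

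**Figure D1:**
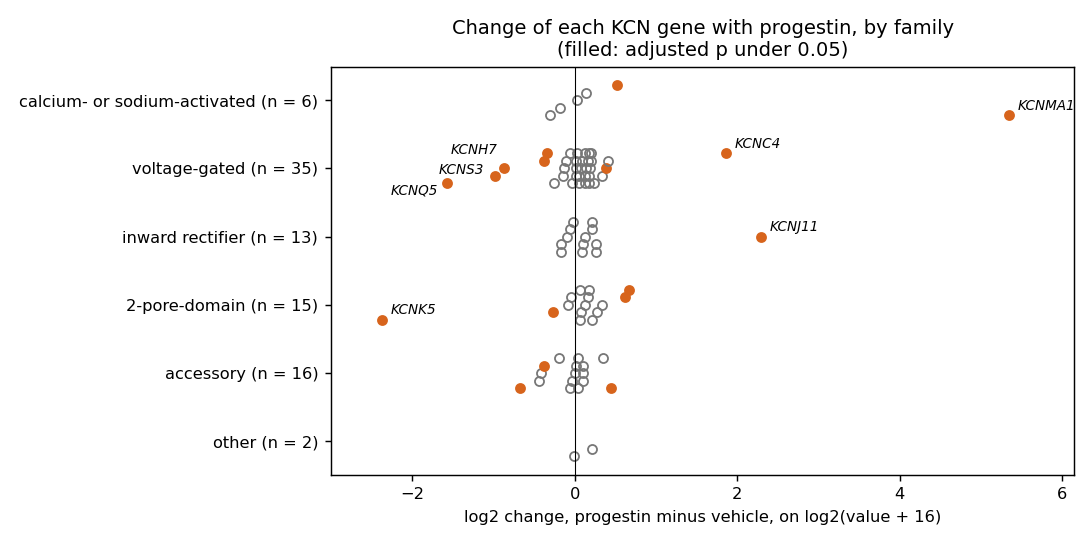
Each point is 1 KCN gene, placed by its log2 change (progestin minus vehicle, log2(value + 16), from the means of 3 arrays each) and by the family its symbol names, with filled points for an adjusted p under 0.05. Most genes lie within 0.5 of 0, and KCNMA1 at 5.34, KCNJ11 at 2.29, KCNC4 at 1.86, KCNQ5 at -1.58 and KCNK5 at -2.37 stand away from the others.

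KCNMA1 encodes the pore of the BK channel, which has a very large conductance and opens on both calcium and depolarisation. It (probe set 7934570) was at 10.46, 10.51 and 10.45 with progestin plus doxycycline, at 10.33, 10.31 and 10.34 with progestin, and at 5.22, 5.07 and 4.68 with vehicle. The arrays of both progestin groups were high and close together, and the vehicle arrays lay near the floor of the scale. The rise under progestin was 40.5-fold, or 5.34 on the log2 scale (SE 0.12, adjusted p = 1.34e-10), the highest change of the 18417 genes on this scale. The vehicle level was near the floor, and the size depended on the scale. It was 6.37 on the log2 values as deposited, where KCNMA1 ranked 9 of 18417, and 4.06 with 64 added in place of 16, where it ranked 6. Leaving out each array in turn gave changes of 5.18 to 5.45. KCNMA1 is the member named when the family was chosen for study, with its response known, so its size is a description.

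**Figure D2:**
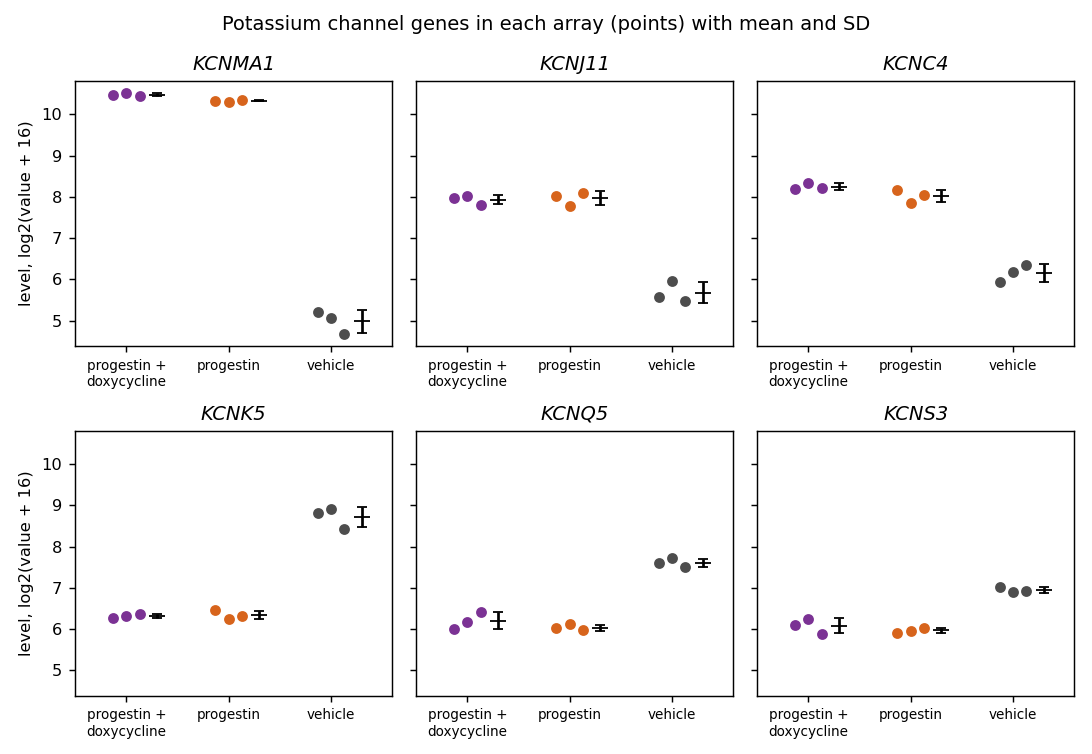
Levels of 6 KCN genes on each array, as log2(value + 16), with points for the 3 arrays of a group and a bar for the mean and SD. Progestin plus doxycycline and progestin lie together in all 6 panels, above vehicle for KCNMA1, KCNJ11 and KCNC4 and below it for KCNK5, KCNQ5 and KCNS3.

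BK channels carry beta subunits (KCNMB1 to KCNMB4) and gamma subunits (LRRC26, LRRC38, LRRC52 and LRRC55) that set their gating. KCNMB4, the beta subunit best known from brain, was at 8.18, 8.14 and 8.18 with progestin plus doxycycline, 8.12, 8.03 and 7.97 with progestin, and 8.73, 8.82 and 8.59 with vehicle. It was lower in every array with progestin than in any vehicle array (progestin against vehicle -0.67, SE 0.08, adjusted p = 9.5e-05). The other beta subunits did not pass the test. KCNMB1, the smooth muscle subunit, differed by 0.01 (SE 0.11) and KCNMB2, which inactivates the channel, by 0.10 (SE 0.13). KCNMB3 differed by -0.19 (SE 0.10), and 0 of the 4 probe sets of KCNMB3 were called. With array weights, where 47% of all probe sets were called, KCNMB2 was called higher (0.27, adjusted p = 0.0433) and KCNMB3 lower (-0.24, 0.0299). KCNMB2 was then also called higher with progestin plus doxycycline against vehicle (0.35, adjusted p = 0.0130). LRRC26, the gamma subunit that lets BK channels open at resting voltage in secretory epithelium, was at 9.08, 8.997 and 9.03 with progestin plus doxycycline, 9.16, 9.15 and 9.11 with progestin, and 8.09, 8.25 and 8.42 with vehicle. LRRC26 thus rose without overlap of the groups (0.89, SE 0.09, adjusted p = 2.17e-05). LRRC38 was at 6.09, 6.18 and 6.28 with progestin and 5.92, 5.88 and 5.82 with vehicle, a rise of 0.31 (adjusted p = 0.013) that was not called with quantile normalization or with a variance trend. LRRC52 (-0.16, SE 0.17) and LRRC55 (0.17, SE 0.14) did not pass. Of the 4 gamma subunits, 2 were called, beside 30.4% of all probe sets, with a median change of 0.24.

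**Figure D3:**
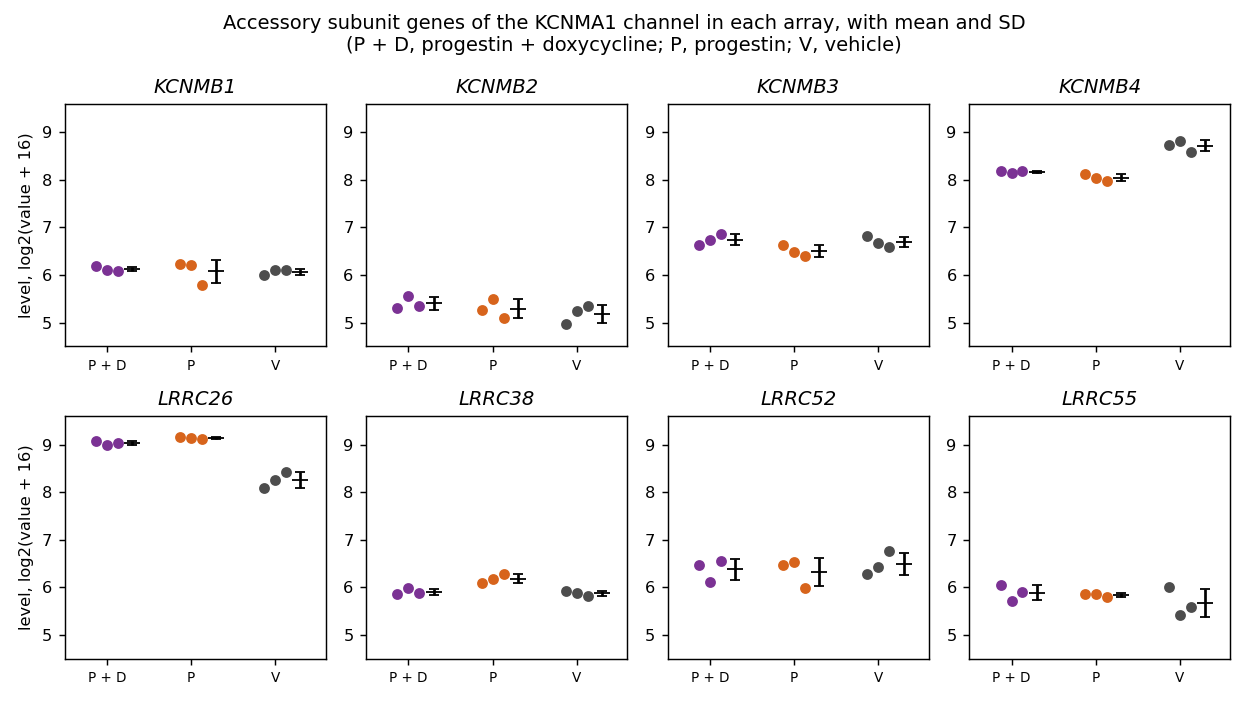
Levels of the 4 beta subunit genes (upper row) and the 4 gamma subunit genes (lower row) of the BK channel on each array, as log2(value + 16), with points for the 3 arrays of a group and bars for the mean and SD. LRRC26 lies above vehicle and KCNMB4 below it in both groups with progestin. The levels of KCNMB1, KCNMB2, KCNMB3, LRRC52 and LRRC55 overlap between the groups.

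The other member of the family of calcium-activated pores that changed was KCNN4, which encodes the intermediate-conductance channel KCa3.1. KCNN4 was at 6.24, 6.08 and 6.27 with progestin plus doxycycline, 6.23, 6.30 and 5.94 with progestin, and 5.84, 5.57 and 5.50 with vehicle. Each array with progestin was above each vehicle array, by 0.52 on average (SE 0.12, adjusted p = 0.0065). KCNN1 (0.03), KCNN3 (-0.18), KCNT1 (0.14) and KCNT2 (-0.30, adjusted p = 0.077) were not called, so 2 of the 6 genes of this group rose and 0 fell.

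Among the 13 inward rectifiers, which pass potassium inward more easily than outward and hold cells near rest, 1 rose and 0 fell. That gene was KCNJ11, the Kir6.2 pore of the channel that ATP closes. KCNJ11 was at 7.97, 8.02 and 7.80 with progestin plus doxycycline, 8.02, 7.79 and 8.10 with progestin, and 5.58, 5.97 and 5.48 with vehicle. The 2 groups with progestin overlapped each other and lay above every vehicle array, and progestin raised the level 4.89-fold (log2 change 2.29, SE 0.13, adjusted p = 2.28e-07). Kir6.2 reaches the cell surface only with a sulfonylurea receptor, and the gene of one of these, ABCC8, is the next gene to KCNJ11 in RefSeq. ABCC8 was at 8.52, 8.71 and 8.56 with progestin plus doxycycline, 8.66, 8.48 and 8.41 with progestin, and 7.62, 7.53 and 6.45 with vehicle. ABCC8 rose by 1.32 (SE 0.25, adjusted p = 0.0018), where vehicle replicate 3 lay more than 1 unit below the other vehicle arrays, and by 0.94 without that array. KCNJ4, the brightest KCN probe set on average, was at 10.77, 10.83 and 10.81 with progestin and 10.47, 10.57 and 10.73 with vehicle, which did not overlap but did not pass the test (0.21, adjusted p = 0.0815). KCNJ4 was called with 64 added (0.0348), quantile normalization (0.036), a variance trend (0.00851) and array weights (0.00245), and without vehicle replicate 3 (0.0198).

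Of the 35 voltage-gated pore subunits, 2 rose and 5 fell, where 14.1% of all probe sets were higher and 16.3% lower. KCNC4 encodes Kv3.4, a fast inactivating channel of the Shaw type. It was at 8.19, 8.34 and 8.22 with progestin plus doxycycline, 8.16, 7.86 and 8.05 with progestin, and 5.93, 6.19 and 6.35 with vehicle. All arrays with progestin were higher than all vehicle arrays, 3.63-fold on average for progestin alone (log2 change 1.86, SE 0.12, adjusted p = 4.44e-07). KCNG1, a silent subunit that works only with other Kv subunits, rose by 0.39 (SE 0.12, adjusted p = 0.0266) on its brighter probe set and differed by -0.00 (adjusted p = 0.992) on the other, so its 2 probe sets disagreed. The call of KCNG1 was lost without vehicle replicate 2 (adjusted p = 0.107), progestin replicate 1 (0.104) or progestin replicate 2 (0.0749).

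KCNQ5 encodes Kv7.5, a pore of the M-type current that steadies the resting voltage. It was at 6.01, 6.16 and 6.42 with progestin plus doxycycline, 6.02, 6.12 and 5.97 with progestin, and 7.60, 7.72 and 7.52 with vehicle. The vehicle arrays stood more than 1 unit above all others, and progestin lowered KCNQ5 2.98-fold (log2 change -1.58, SE 0.11, adjusted p = 8.76e-07). KCNS3, a silent modifier of Kv2 channels, was at 6.09, 6.25 and 5.89 with progestin plus doxycycline, 5.90, 5.97 and 6.03 with progestin, and 7.03, 6.89 and 6.93 with vehicle. It too separated the vehicle arrays from the others (-0.98, SE 0.10, adjusted p = 1.82e-05). KCNH7, an erg channel, was at 5.25, 5.29 and 5.18 with progestin plus doxycycline, 5.39, 5.51 and 5.15 with progestin, and 6.20, 6.23 and 6.23 with vehicle, and was lower without overlap (-0.87, SE 0.10, adjusted p = 3.64e-05). KCNF1, another silent subunit, fell by 0.34 (adjusted p = 0.0142), a call that was lost without vehicle replicate 1 (0.0703) or progestin replicate 2 (0.0584). KCNH1, the ether-à-go-go channel Kv10.1, fell by 0.37 (adjusted p = 0.0469) and lost its call under 8 of the 17 alternatives, and its change was -0.21 without progestin replicate 3. The voltage-gated members with bright probe sets that passed in no comparison were KCNH2 (-0.06), the hERG channel, KCNS2 (0.17), KCNQ3 (0.08), KCNC1 (0.12), KCNC2 (0.13) and KCNH3 (0.13). Of these KCNS2 was called with array weights (0.18, adjusted p = 0.0462).

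The 15 genes of 2-pore-domain channels, which carry background leak currents, had 2 members that rose and 2 that fell. KCNK5 encodes TASK-2, a leak channel that opens at alkaline pH. KCNK5 was at 6.27, 6.31 and 6.36 with progestin plus doxycycline, 6.46, 6.25 and 6.32 with progestin, and 8.81, 8.91 and 8.44 with vehicle. The groups with progestin overlapped each other and lay more than 1 unit below vehicle. With progestin the level was 5.18-fold lower, a change of -2.37 on the log2 scale (SE 0.12, adjusted p = 7.05e-08), the lowest change among the KCN genes and number 18 from the lowest of all 18417 genes. KCNK6, which encodes TWIK-2, was at 8.59, 8.64 and 8.58 with progestin plus doxycycline, 8.73, 8.67 and 8.81 with progestin, and 9.003, 9.10 and 8.91 with vehicle. The 3 groups of KCNK6 did not overlap, but its small difference between progestin and vehicle (-0.27, adjusted p = 0.025) lost its call without vehicle replicate 1 (0.0725), vehicle replicate 2 (0.103), progestin replicate 1 (0.071) or progestin replicate 2 (0.0859), and when only these 2 groups were fitted (0.0524).

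KCNK1 encodes TWIK-1. It was at 7.56, 7.63 and 7.35 with progestin plus doxycycline, 7.36, 7.19 and 7.79 with progestin, and 6.73, 6.94 and 6.65 with vehicle, and rose by 0.67 (SE 0.15, adjusted p = 0.00468). KCNK2 encodes TREK-1, a leak channel opened by membrane stretch. It was at 8.13, 8.21 and 7.83 with progestin plus doxycycline, 8.60, 8.49 and 8.39 with progestin, and 7.92, 7.98 and 7.71 with vehicle. Here the progestin arrays alone were high, above all arrays of the other groups, and progestin raised KCNK2 over vehicle by 0.62 (SE 0.12, adjusted p = 0.00167). KCNK12 (0.21, SE 0.14, adjusted p = 0.291), the brightest probe set of the family that passed in no comparison, belongs to those with overlapping groups. With array weights KCNK12 was called higher (0.37, adjusted p = 0.0136).

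Accessory genes other than KCNMB4 changed in 2 cases, so that of the 16, 1 rose and 2 fell. KCNE1, whose product minK slows the cardiac KCNQ1 channel, was at 6.41, 6.51 and 6.33 with progestin plus doxycycline, 6.84, 6.95 and 6.63 with progestin, and 6.17, 6.35 and 6.55 with vehicle. As for KCNK2, the progestin arrays were the high ones, by 0.45 over vehicle (SE 0.11, adjusted p = 0.0114), a call that was lost without vehicle replicate 1 (adjusted p = 0.0533). KCNAB2, a cytoplasmic beta subunit of Kv1 channels, was lower at 6.42, 6.31 and 6.45 with progestin, against 6.64, 6.74 and 6.92 with vehicle (-0.37, adjusted p = 0.0124). KCNE4, which inhibits several Kv channels, was at 8.36, 7.94 and 8.32 with progestin and 8.86, 8.81 and 8.26 with vehicle. Its vehicle replicate 3 overlapped the progestin arrays, and the difference of -0.44 did not pass (SE 0.17, adjusted p = 0.0686). KCNE4 was called lower with 64 added (0.0307), quantile normalization (0.0484) and array weights (0.00175), without the dimmest probe sets (0.0452), and without vehicle replicate 3 (-0.63, 0.00689).

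Adding doxycycline to progestin asked whether the channel genes depend on the ELF5 level in progestin-treated cells. With doxycycline, 0 of the 87 KCN genes were called by limma, where 0.0707% of all probe sets tested were called (15 of 21214). An unadjusted limma p under 0.05 was found for 6 of the 87 KCN genes and for 3079 of the 21214 probe sets. The median change was -0.04 over the KCN genes and 0.02 over all probe sets tested. Above 0 were 30 of the 87 changes, beside 11845 of 21214 over all probe sets. With progestin against vehicle 57 of 87 were above 0, and both counts use the progestin arrays, so they are not independent. For progestin plus doxycycline against vehicle it was 43 of 87, beside 11072 of 21214. With a variance trend and robust estimation, 2 KCN genes were called (KCNK2 lower, adjusted p = 0.0236, and KCNH1 higher, 0.0414), where 2.79% of all probe sets were, and with 64 added 1 was called (KCNK2, 0.0421).

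For the 5 genes with progestin changes of 2-fold or more, the intervals of the doxycycline difference were narrow beside the hormone's effect. The difference was 0.15 for KCNMA1 (95% interval -0.12 to 0.41), -0.04 for KCNJ11 (-0.33 to 0.25), 0.23 for KCNC4 (-0.03 to 0.49), -0.03 for KCNK5 (-0.29 to 0.23) and 0.17 for KCNQ5 (-0.07 to 0.40). None of these passed the test, and an adjusted p above the threshold does not show that the levels were equal. The arrays of KCNMA1 and KCNC4 with doxycycline lay just above those without, and the arrays of KCNJ11, KCNK5 and KCNQ5 overlapped.

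The 4 KCN genes with the smallest p for doxycycline added were KCNK2, KCNH1, KCNE1 and KCNK18. KCNK2 differed by -0.44 (95% interval -0.69 to -0.18, adjusted p = 0.126) and KCNE1 by -0.39 (-0.64 to -0.14, adjusted p = 0.16), and in both the arrays with doxycycline lay below every array with progestin alone. KCNH1 was at 7.89, 7.80 and 7.84 with progestin plus doxycycline, 7.55, 7.56 and 7.07 with progestin, and 7.88, 7.79 and 7.62 with vehicle. Its progestin arrays were the low ones, with replicate 3 lowest, and the doxycycline difference was 0.45 (0.17 to 0.73, adjusted p = 0.149), or 0.29 without progestin replicate 3. KCNK18, the leak channel TRESK, was at 6.18, 5.86 and 6.17 with progestin plus doxycycline and 6.23, 6.39 and 6.64 with progestin (-0.35, adjusted p = 0.282). For KCNK2, KCNE1 and KCNH1 the level with progestin plus doxycycline lay 0.18 above, 0.06 above and 0.08 above vehicle, with adjusted p values of 0.284, 0.747 and 0.726. The hormone's effect and the doxycycline difference share the progestin arrays and are not independent.

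**Figure D4:**
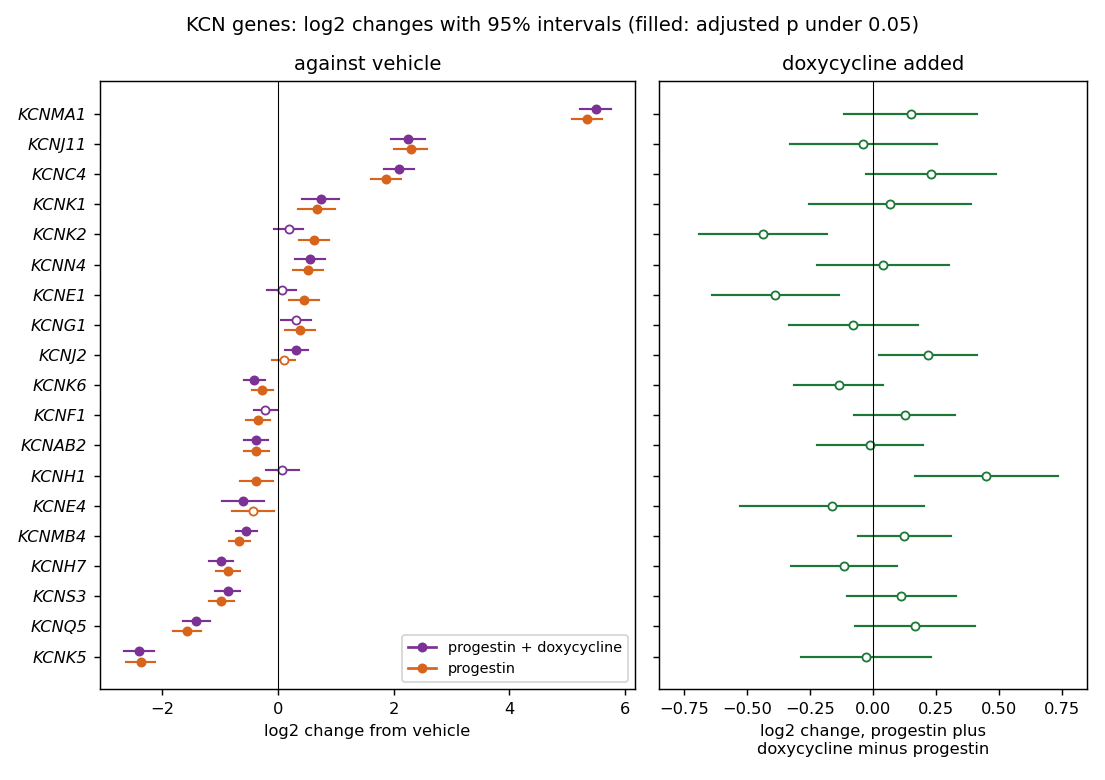
Log2 changes with 95% intervals for the 19 KCN genes called in at least 1 comparison with vehicle. The left panel sets progestin plus doxycycline above progestin for each gene, both against vehicle, and the right panel gives progestin plus doxycycline minus progestin. Filled points have an adjusted p under 0.05, all points of the right panel are open, and KCNK2, KCNE1 and KCNH1 lie farthest from 0 there.

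Progestin plus doxycycline against vehicle joined the effects of hormone, doxycycline and hairpin, since the third group had ethanol vehicle only. Of the 87 KCN genes 14 changed (16.1%), where 29.3% of all probe sets did, with 6 higher (16.3% of all probe sets) and 8 lower (13% of all probe sets). With array weights the count was 24, where 42.9% of all probe sets were called. The higher genes were KCNMA1 (5.49), KCNJ11 (2.25), KCNC4 (2.09), KCNK1 (0.74), KCNN4 (0.56) and KCNJ2 (0.32). The lower genes were KCNK5 (-2.40), KCNQ5 (-1.41), KCNH7 (-0.98), KCNS3 (-0.87), KCNE4 (-0.60), KCNMB4 (-0.55), KCNK6 (-0.41) and KCNAB2 (-0.38). Among them KCNJ2 and KCNE4 were not called with progestin alone, KCNE4 with the exceptions given above. KCNJ2, the strong inward rectifier Kir2.1, was at 6.01, 5.95 and 6.03 with progestin plus doxycycline, 5.69, 5.92 and 5.72 with progestin, and 5.71, 5.57 and 5.74 with vehicle. Its adjusted p was 0.0184, and it was 0.0766 without vehicle replicate 2, 0.0565 without progestin plus doxycycline replicate 1, 0.0613 without replicate 3 of that group and 0.0719 with a variance trend. KCNE4 was at 7.92, 8.20 and 8.02 with progestin plus doxycycline, below all vehicle arrays (adjusted p = 0.0173), and its adjusted p was 0.0708 without vehicle replicate 1, 0.065 without vehicle replicate 2, 0.0625 without progestin plus doxycycline replicate 1 and 0.0525 without replicate 3 of that group. The difference between the 2 hormone groups did not pass for KCNJ2 (0.22, adjusted p = 0.295) or KCNE4 (-0.16, adjusted p = 0.707).

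Other genes of potassium and calcium handling were taken from lists, and their counts with progestin against vehicle are read beside the 30.4% of all probe sets. Among other partners and regulators of potassium channels, 5 of 18 measured genes rose and 2 fell, with a median change of 0.10. SGK1, a kinase that raises the surface level of several ion channels, was at 9.10, 9.13 and 8.95 with progestin plus doxycycline, 9.14, 9.04 and 9.08 with progestin, and 5.41, 5.38 and 5.30 with vehicle. The vehicle arrays were low and tightly grouped, and SGK1 rose by 3.72 (SE 0.08, adjusted p = 1.23e-10). As deposited, its log2 values were 9.10, 8.996 and 9.03 with progestin and 4.73, 4.68 and 4.55 with vehicle. They stand farther apart, so the size depended on the scale. NEDD4L, the ubiquitin ligase that SGK1 phosphorylates, rose by 1.03 (SE 0.09) and WNK1, a kinase of ion transport, fell by 0.48 (SE 0.08). Of 40 measured genes of calcium entry, release and pumps, 3 rose and 4 fell, with a median of -0.04, and 4 in all were called without vehicle replicate 1 or without vehicle replicate 2. The calcium pump of the plasma membrane ATP2B4 fell by 1.17 (SE 0.08) and the T-type calcium channel CACNA1H by 0.98 (SE 0.10), while the store pump ATP2A3 rose by 0.69 (SE 0.08) and the epithelial calcium channel TRPV6 by 0.68 (SE 0.11). Of 19 measured potassium pumps, cotransporters and related channels, 2 rose and 3 fell, with a median of -0.00. There SLC12A2, which brings in sodium, potassium and chloride, fell by 0.69 (SE 0.08), the store channel TMEM38B fell by 0.69 (SE 0.11), the lysosomal channel TMEM175 rose by 0.64 (SE 0.09) and the sodium pump subunit ATP1B1 rose by 0.53 (SE 0.08). With doxycycline added, 0 genes of these lists and of the BK gamma subunits were called. The largest difference in them was that of AKAP9, among the other partners (0.45, adjusted p = 0.0809). ATP2A3 had the largest difference among the 4 named in the calcium list (-0.42, adjusted p = 0.0689).

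The genes next to the 5 members with changes of 2-fold or more were looked up in RefSeq's gene order. Beside KCNMA1, DLG5 rose by 1.24 (adjusted p = 4.19e-07) and LRMDA differed by -0.27 (adjusted p = 0.1). Beside KCNJ11, NCR3LG1 on its other side from ABCC8 differed by -0.03. Beside KCNK5, SAYSD1 fell by 0.30 (adjusted p = 0.0483) and KCNK17 differed by -0.05. Beside KCNQ5, RIMS1 fell by 0.40 (adjusted p = 0.0179), and beside KCNC4, SLC6A17 rose by 0.33 (adjusted p = 0.0437). Each neighbour tested, ABCC8 included, changed by less than the channel gene beside it. The channel genes were chosen here for their large changes, so that ordering was nearly fixed by the choice.

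Progesterone receptor binds DNA at inverted repeats of a hexamer, and the upstream windows of the channel genes were searched for such letters. RefSeq (GRCh38.p14) held 250 bases upstream of 107 transcript starts of 69 of the 87 KCN genes. On both strands, the core ACANNNTGT stood in 2 of these windows (1.87%) against 4.61% of the 35116 windows of all genes. The hexamer, TGTTCT or its reverse complement AGAACA, stood in 7 (6.54%) against 12.4%. The hexamer can overlap the core, and either was found in 9 (8.41%) against 16%. KCN windows held more G and C, with a median of 64% against 58%. Of the members that rose with progestin, 6 had windows, and 3 of their 11 windows held a match, while 0 of 11 windows of 7 members that fell did. These matches lie in windows of KCNE1 and KCNK2 alone, and windows of the same gene are not independent. No window was held for KCNJ11 and KCNG1, which rose, or for KCNH7 and KCNMB4, which fell. The windows shown are the outermost of the members with the highest and the lowest change, KCNMA1 and KCNK5, and those of KCNK2 and KCNE1, which were highest with progestin alone and hold a match. Capitals mark a match, and each sequence runs 5′ to 3′ on the gene's strand and ends next to the transcript start.
KCNMA1: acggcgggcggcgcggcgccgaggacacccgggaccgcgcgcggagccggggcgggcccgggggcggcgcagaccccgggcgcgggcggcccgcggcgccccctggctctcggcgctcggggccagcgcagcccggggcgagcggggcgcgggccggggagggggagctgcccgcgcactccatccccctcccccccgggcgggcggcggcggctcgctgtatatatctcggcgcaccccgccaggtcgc
KCNK5: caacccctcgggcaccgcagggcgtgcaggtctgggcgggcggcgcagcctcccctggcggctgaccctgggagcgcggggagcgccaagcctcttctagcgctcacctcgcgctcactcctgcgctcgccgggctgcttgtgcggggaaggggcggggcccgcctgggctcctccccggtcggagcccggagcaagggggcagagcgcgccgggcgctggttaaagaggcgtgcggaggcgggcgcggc
KCNK2: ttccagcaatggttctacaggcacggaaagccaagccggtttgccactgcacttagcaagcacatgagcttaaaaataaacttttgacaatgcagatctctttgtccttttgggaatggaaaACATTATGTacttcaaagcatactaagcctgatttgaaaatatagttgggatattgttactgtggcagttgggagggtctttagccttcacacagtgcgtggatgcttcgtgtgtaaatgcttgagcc
KCNE1: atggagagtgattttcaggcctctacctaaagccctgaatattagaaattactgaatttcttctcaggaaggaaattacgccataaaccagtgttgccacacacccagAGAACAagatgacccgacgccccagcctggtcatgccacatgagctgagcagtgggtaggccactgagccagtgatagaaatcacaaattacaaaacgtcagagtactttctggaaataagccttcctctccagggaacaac
The window of KCNMA1 lies at chr10:77637809-77638058 on the minus strand and is 85.6% G and C, with 0 matches, and 0 were found in the window of its second start. That of KCNK5 lies at chr6:39229476-39229725 on the minus strand and is 77.2% G and C, with 0 matches. KCNK2 has its window at chr1:215005292-215005541 on the plus strand (42.8% G and C), with the core starting 128 bases before the transcript start. For KCNE1 the window is chr21:34512211-34512460 on the minus strand (46.4% G and C), with AGAACA starting 142 bases before the start, and the window of another of its starts holds TGTTCT. A match describes letters and no binding was measured, and where none was found these letters are only absent from the window searched.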

How the data were processed

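Total RNA of 9 samples was hybridised to Affymetrix human gene arrays. The authors deposited 1 log2 value per probe set and array. PLIER, limma, Affymetrix Expression Console and Affymetrix Power Tools are listed in the submitters' processing notes, without roles or versions. Background correction, between-array normalization and genome build were not given in the sources used here. Value ranges identified the deposited scale as log2.

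Of 33297 probe sets, 19460 had 1 gene symbol in the platform annotation and 21214 had at least 1, and these were tested. All 87 KCN genes matched RefSeq by gene identifier, with 0 changed symbols. Each deposited value was taken out of log2, 16 was added and log2 taken again. A model of 3 group means was fitted to the 9 arrays (limma 3.58.1 under R 4.3.3, eBayes), with two-sided tests adjusted over 21214 probe sets. Adjusted p values are from this fit unless another is named. The code was tested on simulated data. The number of arrays limits the precision, p-values reflect only how these arrays vary, and an exact permutation test of 3 against 3 cannot go below 0.1. No array or culture batch is recorded in the labels.

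Alternatives were the log2 values as deposited, 64 added, quantile normalization, leaving out the dimmest 25%, a variance trend with robust estimation, array weights, the 2 groups alone, a replicate block, every single-symbol probe set, and each array left out. Named are ELF5, PGR, the BK genes, the KCN genes called in any comparison, the 4 KCN genes with the smallest p for doxycycline added, the 8 brightest uncalled, and 4 of each list. The neighbouring genes, AKAP9, the genes of a family given for completeness and the promoters shown were chosen after their values were seen. The members and lists were chosen with earlier results of these data known.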

Additional observations from a re-analysis of the deposited data

How the results depend on the processing

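The number of KCN genes called with progestin against vehicle was 15 to 19 under the alternatives that left out no single array, except 31 with array weights, which called 47% of all probe sets and where vehicle replicate 1 had a weight of 7.28 and vehicle replicate 3 one of 0.318. Leaving out each array gave 13 (without vehicle replicate 1) to 22 (without vehicle replicate 3). With progestin plus doxycycline against vehicle it was 12 to 17, except 24 with array weights (42.9% of all probe sets), and 12 to 17 with an array left out. With doxycycline added to progestin it was 0 except 1 with 64 added and 2 with the variance trend, robustly estimated, and 0 to 0 with an array left out. KCNMA1 was called under all alternatives, at 5.18 to 5.45 with an array left out. Of the 17 genes called with progestin, 12 kept the call under every alternative that tested them and 5 lost it under at least 1 (KCNE1, KCNG1, KCNH1, KCNF1 and KCNK6); KCNN4 and KCNH7 were not tested without the dimmest probe sets. The cause of these losses was not tested. In the partner lists array weights gave 12 other partners and regulators, 15 calcium genes and 8 pumps and cotransporters for progestin, and 13 calcium genes for progestin plus doxycycline against vehicle. For doxycycline added, up to 3 of 40 calcium genes and up to 3 of 18 other partners were called, against 0. Both counts came with the variance trend, which called 2.79% of all probe sets. With progestin, 2 gamma subunits were called, against 1 with quantile normalization, with the variance trend or without the dimmest probe sets. Calcium genes called with progestin were 7, against 4 without vehicle replicate 1 or 2. Deviations of same-numbered arrays correlated at -0.26 to 0.47 over 9 pairs, with 3 over 0.1. The highest were 0.47 and 0.45, between vehicle and progestin plus doxycycline of replicates 2 and 3. The lowest was -0.26, between progestin and progestin plus doxycycline of replicate 2. Between arrays of different groups and different numbers the correlations ran from -0.49 to 0.27. Whether same-numbered samples share more than the number was not tested. The replicate block called 16 KCN genes for progestin, without KCNK6 (adjusted p = 0.0509), 0 for doxycycline added and 14 for both against vehicle. No call changed its direction.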
